A study of Mus musculus with 32 samples.

Results

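The creatine kinase system of skeletal muscle was followed through 7 genes, all found among the 54838 genes of the count table. These genes were chosen by name for their known roles, with earlier results of these data known. They were the cytosolic kinases *Ckm* and *Ckb*, the mitochondrial kinases *Ckmt1* and *Ckmt2*, the creatine transporter *Slc6a8*, and *Gatm* and *Gamt*, the enzymes of creatine synthesis. *Ckmt2* was lower in KO than in WT muscle at P21 and P35, by 3.02-fold at P35. Its call at P21 was lost on library totals and in a fit of all 32 libraries. *Ckb* and *Gatm* were higher in KO at P35, by 1.95-fold and 2.33-fold, the call of *Gatm* being lost in 4 of 8 fits that left out a library. *Ckm*, by far the most abundant of the 7, and *Gamt* and *Slc6a8* did not pass the test between genotypes at any age. At P35, however, 2 alternative fits called *Ckm* lower in KO, and a fit on library totals called *Gamt* higher.

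Creatine kinases move a phosphoryl group between ATP and creatine. In muscle fibres the mitochondrial form charges creatine with ATP made by respiration, and the cytosolic form, much of it bound at the M-band and near the calcium pumps, uses phosphocreatine to restore ATP where it is spent. Muscle makes little creatine of its own: *Gatm* (arginine:glycine amidinotransferase) makes guanidinoacetate, chiefly in the kidney and pancreas, *Gamt* (guanidinoacetate methyltransferase) methylates it to creatine, chiefly in the liver, and *Slc6a8* carries creatine from the blood into the fibre. *Ckb* is the brain-type kinase and is also made by myoblasts, in which *Ckm* replaces it as fibres mature. *Ckmt1*, the ubiquitous mitochondrial form, is best known from brain and epithelia, and *Ckmt2* is the form of the sarcomere.

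RNA of skeletal muscle, by the study's text the tibialis anterior (TA), a fast-twitch muscle of the lower hindlimb, was sequenced from *Mtm1* WT and *Mtm1* KO mice of the C57BL6/J strain at P1, P14, P21 and P35. There were 4 libraries in each of the 8 groups, 32 in all. The KO allele lacks sequence of exon 4 of *Mtm1*, an X-linked gene for a phosphoinositide phosphatase, in the whole animal, and the WT mice were littermates that received no other treatment. The sample labels number the libraries of a group from 1 to 4 but do not say that each came from another mouse, so that p-values measure the spread between libraries. Libraries held 49321035 to 85631408 counts. In whole muscle, fewer cells of a type and less RNA per cell cannot be told apart.

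Levels are given as CPM (counts of a gene per 1000000 counts) on library sizes scaled by the trimmed mean of M values (TMM) over the 32 libraries, which sets the typical gene level between groups. Comparisons between genes use TPM (transcripts per 1000000 transcripts), which also divides by exon length. Dividing by library totals instead of TMM sizes moved the median gene by 0.19 (log2, KO against WT) at P21, by 0.40 at P35, by -0.76 from P1 to P14 in WT and by -0.70 in KO. Every change below is therefore relative to the typical gene, and a direction that turned under library totals is named. Shares of all genes called are those with TMM sizes. Counts of calls on library totals have no such share beside them. *Mtm1* itself was at 18.9 to 24.9 CPM in WT and 2.64 to 4.51 CPM in KO from P14 on, and at 5.26 to 6.02 against 2.32 to 3.91 CPM at P1, so every library matched its label. The summed level of 10 fast fibre markers was 84253 to 190700 CPM from P14 on and 18559 to 34778 CPM at P1. The summed level of 6 keratinocyte markers was 1528 to 5818 CPM at P1 and at most 35.3 CPM later, so the P1 libraries also held RNA typical of skin.

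The 3 promoters below belong to *Ckm*, the most abundant kinase, and to *Ckb* and *Ckmt2*, the kinases called between genotypes. At P35 *Ckb* was higher and *Ckmt2* lower in KO, while *Ckm* was not called. Each runs from 250 bases before to 50 after the RefSeq start on GRCm38.p6, 5′ to 3′ on the strand of the gene. Capitals mark matches, on either strand, to the E-box CANNTG bound by myogenic factors or to the MEF2 motif. RefSeq promoters were found for 6 of the 7 genes.
*Ckm* (chr7:19410844-19411143, + strand): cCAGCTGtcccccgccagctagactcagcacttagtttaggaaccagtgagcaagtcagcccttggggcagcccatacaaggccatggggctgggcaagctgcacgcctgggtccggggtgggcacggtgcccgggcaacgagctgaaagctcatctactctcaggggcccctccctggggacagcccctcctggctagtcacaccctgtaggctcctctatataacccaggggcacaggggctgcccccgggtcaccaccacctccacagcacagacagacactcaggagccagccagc
*Ckb* (chr12:111672289-111672588, - strand): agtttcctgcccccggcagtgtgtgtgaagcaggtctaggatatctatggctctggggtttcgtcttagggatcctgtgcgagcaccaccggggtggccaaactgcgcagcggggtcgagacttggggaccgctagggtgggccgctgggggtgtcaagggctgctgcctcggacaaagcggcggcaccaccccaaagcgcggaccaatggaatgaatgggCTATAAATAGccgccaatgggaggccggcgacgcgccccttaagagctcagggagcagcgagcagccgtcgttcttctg
*Ckmt2* (chr13:91876836-91877135, - strand): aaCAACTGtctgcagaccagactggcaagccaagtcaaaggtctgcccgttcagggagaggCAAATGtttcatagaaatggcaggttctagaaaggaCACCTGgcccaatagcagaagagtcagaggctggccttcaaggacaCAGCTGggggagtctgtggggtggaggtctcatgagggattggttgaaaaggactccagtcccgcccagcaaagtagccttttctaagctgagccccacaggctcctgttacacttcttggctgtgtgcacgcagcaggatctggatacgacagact
The *Ckmt2* window held 4 E-boxes and the *Ckm* window 1, at its far 5′ end, where 72.3% of the 32851 promoters of this length held at least 1. The *Ckb* window held no E-box and 1 MEF2 match, CTATAAATAG at -29, a motif found in 0.557% of promoters. That match contains the letters TATAAA, which alone occurred in 13.6% of promoters. None of the 3 windows held the CArG box of serum response factor (1.63% of promoters) or AAGGTCA, the letters bound by estrogen-related receptors (4.72%). Such matches describe letters only, and whether a factor binds there was not tested.

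**Figure D1:**
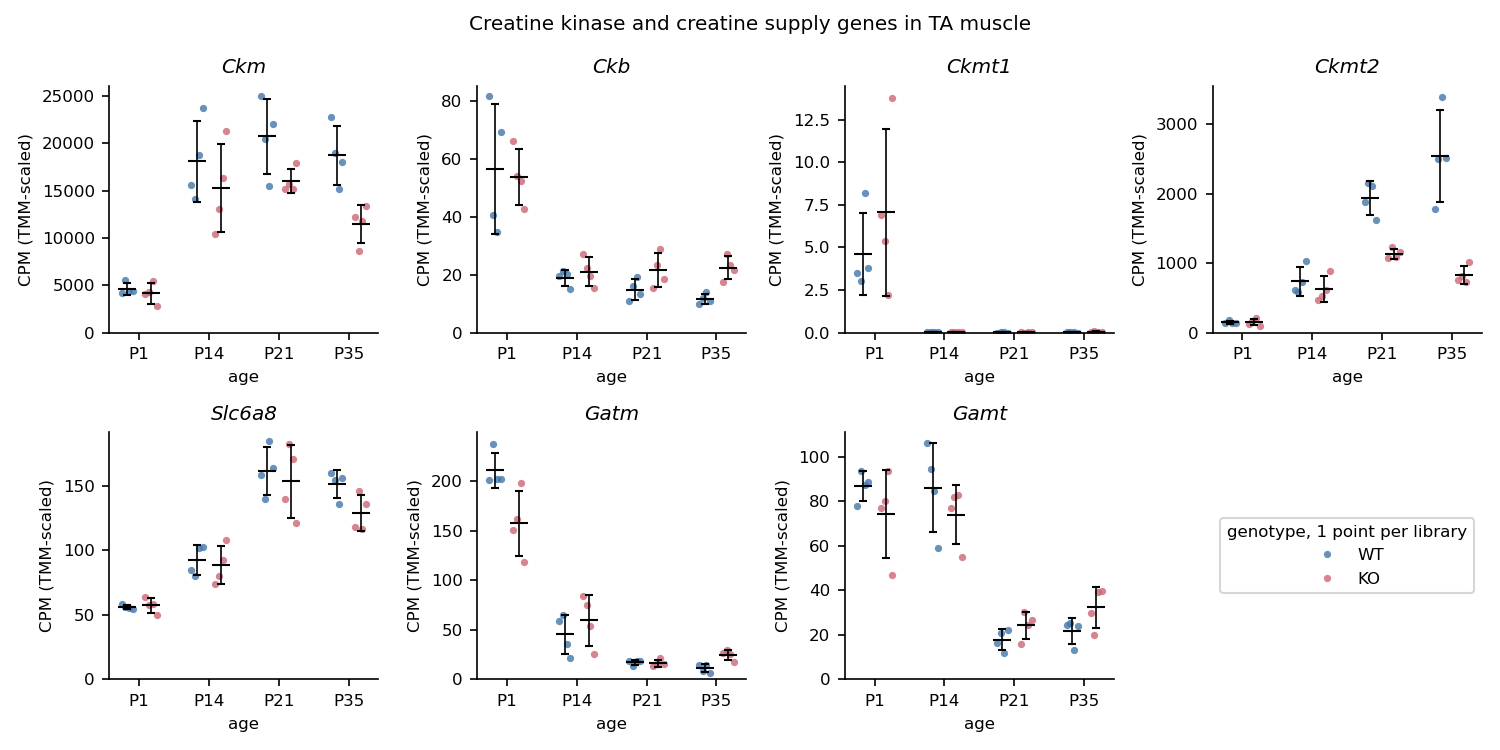
CPM of each gene (vertical axis, from 0) by age (horizontal axis), with 1 point per library, WT in blue and KO in red; black marks show mean ± SD of 4 libraries. *Ckmt2* of the 2 genotypes separated from P21 on, and *Ckmt1* was near 0 after P1.

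**Figure D2:**
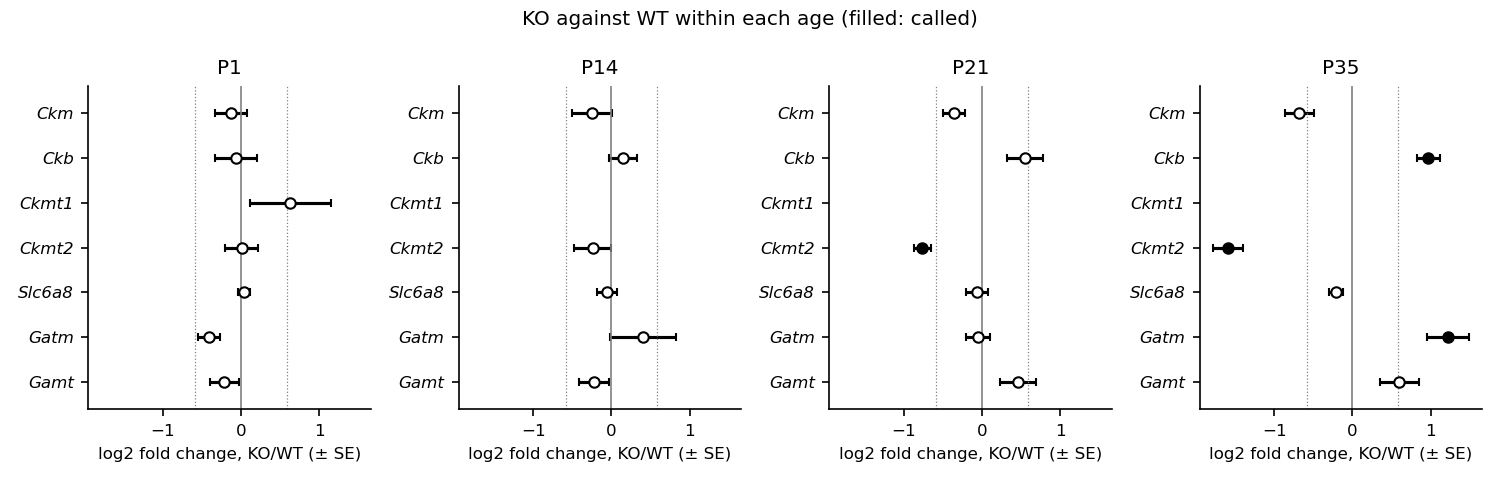
Log2 fold change of KO against WT (horizontal axis, ± SE) for each gene at each age; filled points were called, and dotted lines mark the 1.5-fold threshold on either side of 0. No gene was called at P1 or P14, *Ckmt2* was called at P21, and *Ckmt2*, *Ckb* and *Gatm* were called at P35.

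KO was compared with WT within each age to ask when the loss of *Mtm1* is seen in these genes. A DEG was a gene whose fold exceeded 1.5 in either direction with an adjusted *P*-value below 0.01 in edgeR's quasi-likelihood test. At P1 0 of 7 genes were called (background: 0.0442% of all genes tested) and 1 had libraries that did not overlap between genotypes (8.62% of all genes). At P14 0 of the 6 genes tested were called (0.0318% of all genes) and 0 did not overlap (4.84%), *Ckmt1* being too low to test from P14 on. These counts of 0 came with 1 unadjusted p under 0.05 at P1 and 0 at P14, and DESeq2 also called 0 at each age. At P14 same-numbered WT and KO libraries deviated together, so pairs are given as well. *Gatm* was higher in KO in 4 of 4 pairs, and *Ckm*, *Ckmt2* and *Gamt* were each lower in 4 of 4. With the replicate number as a block the log2 fold change of *Gatm* was 0.39 (SE 0.0657, adjusted *P* = 0.00978), under the fold threshold, and those of *Ckmt2*, *Gamt* and *Ckm* were -0.24, -0.21 and -0.27 (adjusted *P* = 0.0279, 0.0871 and 0.131). With the block 0 of the 6 genes were called, where 98 of all genes tested were, against 5 of all genes without it. Overlap between the unpaired groups at P14 does not show that these genes were alike. At P21 1 of 6 was called (4.67% of all genes) and 1 did not overlap (24.7%). At P35 3 of 6 were called (16% of all genes) and 4 did not overlap (39.6%).

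*Ckm* (ENSMUSG00000030399, chr7:19404776-19422841 on GRCm38, + strand), the muscle-type kinase, was among the 20 most abundant genes by TPM in every group. Its WT levels at P1, P14, P21 and P35 were 7059 ± 643, 13559 ± 1548, 13191 ± 1964 and 10084 ± 1962 TPM (mean ± SD, n = 4). It rose from P1 to P14, by 1.96 (log2) in WT and 1.85 in KO (adjusted *P* = 1.41e-05 and 3.59e-04). No later step was called in either genotype. At P35 the WT libraries held 22718, 18958, 15157 and 18057 CPM, against 12208, 8656, 11780 and 13373 CPM in KO. The highest KO library was under the lowest WT library, but the log2 fold change of -0.68 (SE 0.185, adjusted *P* = 0.0160) missed the threshold of 0.01. DESeq2 (-0.69, adjusted *P* = 1.51e-04) and a fit of all 32 libraries in edgeR (-0.70, 0.00954) called it. At P21 the log2 fold change was -0.36 (adjusted *P* = 0.104), and KO replicates at 15176 to 17929 CPM overlapped WT at 15461 to 24935 CPM. On library totals the P35 value was -0.28, and in TPM the KO mean was 9206 ± 1141 against 10084 ± 1962 in WT (means ± SD), so the size of the difference depended on the scaling. An antisense gene, A930016O22Rik, overlaps *Ckm*, and the sources used here do not state whether counting used the strand.

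*Ckb* (ENSMUSG00000001270, chr12:111669361-111672338, - strand), the brain-type kinase, fell as *Ckm* rose. In WT it went from 88.1 ± 36.7 TPM at P1 to 14.8 ± 3.55, 9.67 ± 2.80 and 6.30 ± 0.844 TPM at the later ages. The fall from P1 to P14 was 1.59 on the log2 scale in WT and 1.38 in KO (log2 fold changes -1.59 and -1.38, adjusted *P* = 3.19e-04 and 8.91e-05), and no later step was called. Over this step 5 of 6 macrophage markers fell in each genotype, their sum going from 148 to 171 CPM to 78.2 to 98.5 CPM in WT. Fibroblast markers fell as well, 5 of 6 in WT and 4 of 6 in KO, and the part of these cells in the fall of *Ckb* was not tested. At P35 the WT libraries held 9.83, 12, 14.0 and 11.0 CPM, against 17.5, 27.0, 23.5 and 21.7 CPM in KO. All 4 KO libraries lay above all 4 WT libraries, and the log2 fold change of 0.97 (SE 0.149) had an adjusted *P* = 0.0010. At P21 WT held 10.8 to 19.2 CPM and KO 15.5 to 29.0 CPM, which overlapped, with a log2 fold change of 0.55 (adjusted *P* = 0.117). KO *Ckb* thus kept close to its P14 level, at 21.1 ± 4.94, 21.6 ± 5.93 and 22.4 ± 3.95 CPM at P14, P21 and P35, while the WT means over these ages were 19.0 ± 2.78, 14.9 ± 3.65 and 11.7 ± 1.76 CPM. Beside this, the 6 macrophage markers summed to 62.4 to 78.1 CPM in WT and 73.3 to 104 CPM in KO at P35, where 3 of the 6 were called higher. At P21 they summed to 76.8 to 88.8 against 86.8 to 107 CPM, where 2 were. The marker *Mrc1* went the other way at P35, at 26.4 to 33.5 CPM in WT and 19.6 to 24.6 CPM in KO, though it was not called. None of the 6 was at 0, and their part in the *Ckb* result was not tested.

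*Ckmt2* (ENSMUSG00000021622, chr13:91853387-91876885, - strand), the mitochondrial kinase of the sarcomere, rose in WT from P1 to P21. Its WT means at the 4 ages were 151 ± 21.5, 739 ± 207, 1942 ± 248 and 2546 ± 659 CPM. The steps from P1 to P14 (log2 fold change 2.28, adjusted *P* = 3.55e-06) and from P14 to P21 (1.38, 0.00183) were called, and the step to P35 was not (0.38, 0.189). In KO the means were 151 ± 47.6, 627 ± 184, 1138 ± 71.3 and 830 ± 128 CPM. The first step in KO was called (2.03, adjusted *P* = 8.48e-05) and so was the second (0.85, 0.00877), whereas the value from P21 to P35 was -0.44 (adjusted *P* = 0.0212), with every P35 library under every P21 library but no call. The call of the second KO step was lost in 7 of 8 fits that left out a library (values 0.74 to 1.06, adjusted *P* up to 0.0333) and with the replicate block (0.0138).

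At P21 *Ckmt2* stood at 1879, 2158, 2112 and 1618 CPM in WT, against 1075, 1228, 1088 and 1162 CPM in KO. Without overlap, KO was 1.69-fold lower (log2 fold change -0.76, SE 0.107, adjusted *P* = 0.00185), but the call was lost with library totals (-0.57, under the fold threshold) and in a fit of all 32 libraries (-0.77, adjusted *P* = 0.0118). By P35 WT libraries reached 1780, 2495, 3390 and 2520 CPM, against 762, 822, 724 and 1012 CPM in KO. The highest KO library was well under the lowest WT library, and the difference of 3.02-fold (log2 fold change -1.59, SE 0.194, adjusted *P* = 3.27e-04) was called under every alternative tried, between -1.20 and -1.73. Tested as an interaction over 32 libraries, the KO effect on *Ckmt2* at P35 differed from that at P21 by -0.85 (SE 0.301, unadjusted p = 0.00882 in edgeR, adjusted *P* = 0.133). Of the 7 genes 0 were called for a KO effect at P14 against P1 (0.0161% of all genes), at P21 against P14 (0.425%) or at P35 against P21 (0.463%), so a change of the KO effect between neighbouring ages was not shown for any of them. In these 3 tests 0, 0 and 2 of the 7 had an unadjusted p under 0.05, and DESeq2 called 0 in each.

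*Ckmt1* (ENSMUSG00000000308, chr2:121357714-121363737, + strand), the ubiquitous mitochondrial kinase, was a gene of the P1 libraries. WT P1 held 3.48, 3.02, 8.20 and 3.78 CPM, from 264 to 831 counts, and KO P1 held 6.90, 5.41, 2.18 and 13.8 CPM, from 186 to 1547 counts. The genotypes overlapped widely (log2 fold change 0.63, SE 0.515, adjusted *P* = 0.673). From P14 on no library held more than 8 counts, so no fold is given. The 4 libraries of a group together held 2 to 6 counts, apart from KO at P35. Those KO libraries held 3, 8, 2 and 3 counts, 16 in sum, against 3 in sum in WT at P35. Counts under 3 could not be told from 0, and from P14 on only replicate 2 of KO P35 held more than 3. The difference between genotypes was not tested. The loss from P1 to P14 was called in both genotypes (adjusted *P* = 1.09e-06 in WT and 1.05e-05 in KO). Among the P1 libraries the highest WT value and the lowest KO value of *Ckmt1* were in the libraries with the highest (5818 CPM) and the lowest (1528 CPM) sum of keratinocyte markers, whereas the highest KO value, 13.8 CPM, was in a library with a middling sum of 3206 CPM. The part of skin RNA in the level of *Ckmt1* was not tested. *Strc*, on the other strand, overlaps *Ckmt1*.

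**Figure D3:**
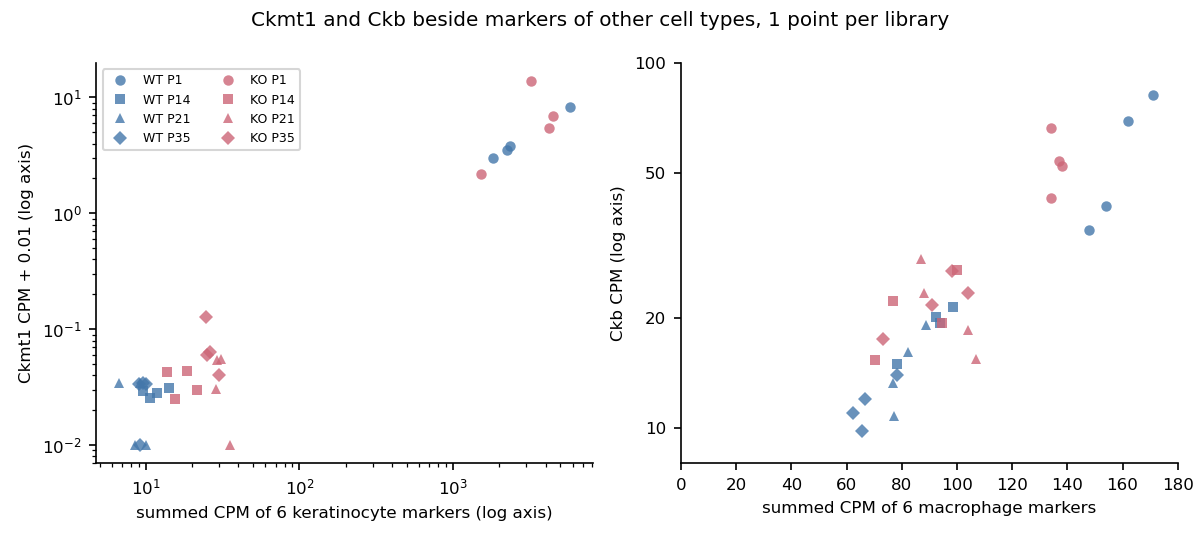
Left, *Ckmt1* CPM + 0.01 against the summed CPM of 6 keratinocyte markers, both axes logarithmic; right, *Ckb* CPM on a log axis against the summed CPM of 6 macrophage markers, with 1 point per library, WT in blue and KO in red, and ages by symbol. The 8 P1 libraries stand apart in both panels, at 1528 to 5818 CPM of keratinocyte markers.

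*Slc6a8* (ENSMUSG00000019558, chrX:73673150-73682502, + strand), which brings creatine into the fibre, differed little between genotypes in CPM. Its WT means were 56.1 ± 1.67, 92.5 ± 11.8, 162 ± 18.4 and 152 ± 10.7 CPM at P1, P14, P21 and P35. The KO means were 57.2 ± 5.56, 88.7 ± 14.8, 154 ± 28.4 and 129 ± 14.2 CPM. The step from P14 to P21 was called in WT (log2 fold change 0.80, adjusted *P* = 0.00218) and in KO (0.78, 0.00694), where 6 of 8 fits that left out a library lost it (adjusted *P* up to 0.0277). The step from P1 to P14 was called as higher in WT (0.71, adjusted *P* = 5.04e-05) and KO (0.60, 0.00169), but it turned to -0.07 and -0.12 on library totals, and in TPM the WT mean was 48.2 ± 2.31 at P1 and 39.2 ± 2.29 at P14. At P35 the WT libraries held 160, 155, 136 and 156 CPM, against 118, 146, 117 and 136 CPM in KO, which overlapped. In TPM the groups at P35 did not overlap, at 40.3 to 50.2 in WT and 52.1 to 71.2 in KO. With TMM sizes the log2 fold change at P35 was -0.21 (SE 0.0949, adjusted *P* = 0.103), which turned to 0.20 on library totals. At P21 it was -0.06 (adjusted *P* = 0.778) and turned to 0.12, so that no direction can be given for the transporter.

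*Gatm* (ENSMUSG00000027199, chr2:122594467-122611303, - strand), the amidinotransferase of the first step of creatine synthesis, fell from one of the more abundant genes of newborn muscle to a low level. Its WT levels at the 4 ages were 315 ± 11.5, 34.8 ± 18.3, 10.5 ± 1.52 and 5.68 ± 2.25 TPM. The falls from P1 to P14 (log2 fold change -2.24 in WT and -1.44 in KO, adjusted *P* = 7.18e-05 and 0.00264) and from P14 to P21 (-1.43 and -1.90, 0.00942 and 0.00464) were called. The second of these calls was lost in 7 of 8 fits that left out a WT library (adjusted *P* up to 0.0298) and in 6 of 8 that left out a KO library (up to 0.0173), and in WT also on library totals (0.0104), the values staying between -2.15 and -1.21. From P21 to P35 the 2 genotypes gave values of opposite sign, -0.65 in WT (adjusted *P* = 0.105) and 0.63 in KO (0.0348), neither of them called, and the interaction was 1.26 (SE 0.436, unadjusted p = 0.00744 in edgeR, adjusted *P* = 0.122). At P35 the WT libraries held 14.2, 8.66, 14.5 and 6.11 CPM, against 26.9, 29.2, 25.5 and 17.6 CPM in KO. The groups did not overlap, and KO was 2.33-fold higher (log2 fold change 1.22, SE 0.272, adjusted *P* = 0.00629). That call was lost without WT P35 replicate 2 (1.12, adjusted *P* = 0.0209) and without KO P35 replicates 1 (1.17, 0.0159), 2 (1.12, 0.0152) or 3 (1.19, 0.0171), the value itself moving little. At P21 WT held 13.6 to 18.1 CPM and KO 12.8 to 21.1 CPM (log2 fold change -0.05, adjusted *P* = 0.850), a sign that turned to 0.14 on library totals. At P1 WT held 202, 238, 203 and 203 CPM and KO 151, 162, 198 and 119 CPM, the only gene of the 7 without overlap at that age, but the log2 fold change of -0.41 (SE 0.142) had an adjusted *P* = 0.338.

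*Gamt* (ENSMUSG00000020150, chr10:80258151-80261012, - strand), the methyltransferase of the second step, kept its CPM but not its TPM from P1 to P14. Its WT means at the 4 ages were 86.9 ± 6.65, 86.0 ± 19.9, 17.7 ± 4.68 and 21.7 ± 5.71 CPM. It fell between P14 and P21, with log2 fold changes of -2.29 in WT and -1.63 in KO (adjusted *P* = 4.67e-04 and 0.00111), and neither genotype was called in the steps before and after. At P35 the WT libraries held 24.4, 25.1, 13.1 and 24.0 CPM, against 29.8, 20, 39.3 and 39.8 CPM in KO. In CPM KO replicate 2 lay among the WT libraries, whereas in TPM the groups did not overlap (14.0 to 27.6 in WT, 35.2 to 63.6 in KO). The log2 fold change of 0.60 (SE 0.25, adjusted *P* = 0.0829) was not called, although on library totals it was (1.00, adjusted *P* = 0.00538). At P21 the value was 0.46 (adjusted *P* = 0.179), with overlap between 11.8 to 22.1 CPM in WT and 15.8 to 30.0 CPM in KO.

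Between ages the 7 genes thus moved mostly before P21. From P1 to P14 6 of 7 were called in WT (55.1% of all genes) and 6 of 7 in KO (52.6%), in each case 3 higher (*Ckm*, *Ckmt2*, *Slc6a8*) and 3 lower (*Ckb*, *Ckmt1*, *Gatm*), and on library totals 2 higher and 4 lower, *Slc6a8* being replaced by a fall of *Gamt*. From P14 to P21 4 of 6 were called in WT (5.53% of all genes) and 4 of 6 in KO (7.04%), *Ckmt2* and *Slc6a8* higher and *Gatm* and *Gamt* lower in each. With 1 library left out the WT count was 2 to 4, with 2 calls without WT P14 replicate 1 and at least 3 otherwise. The KO count was 4 without KO P14 replicate 4, 2 without KO P21 replicate 3 or 4, and 1 without any of the other 5 libraries. From P21 to P35 0 of 6 were called in WT (2.45% of all genes, 1 unadjusted p under 0.05, 0 called by DESeq2) and 0 of 6 in KO (4.01%, 3 unadjusted, 1 called by DESeq2, *Gatm*). These comparisons share libraries at P14 and P21.

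Ratios between genes within a library do not depend on the scaling between libraries. *Ckm* made up 92.7% ± 0.544 of the summed TPM of the 4 kinases in WT at P1, 92.5% ± 0.347 by P14, 84.0% ± 4.06 by P21 and 78.5% ± 7.04 by P35. *Ckmt2* made up 5.96% ± 0.135 in WT at P1, beside 1.18% ± 0.561 of *Ckb*, and 21.4% ± 7.03 at P35. In KO the share of *Ckm* was 92.1% ± 0.413, 92.4% ± 0.553, 87.6% ± 0.842 and 87.3% ± 2.34. There were 15.4, 25.8, 43.8 and 27.4 *Ckmt2* per 100 *Ckm* transcripts in the 4 WT libraries at P35 and 12.2, 18.6, 12 and 14.8 in KO. WT replicate 1 lay inside the KO range and WT replicate 3 far above the rest, so on this measure the groups overlapped. There were 4.35, 6.35, 9.28 and 6.10 *Ckb* per 10000 *Ckm* transcripts in WT at P35 and 14.4, 31.4, 20.1 and 16.3 in KO, without overlap, against 74.0 to 199 in WT at P1. At P21 the *Ckb* ratio overlapped, at 4.36 to 12.5 in WT and 10.3 to 19.2 in KO. The summed kinase level was 12759 ± 1364 TPM in WT and 10533 ± 1134 TPM in KO at P35.

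**Figure D4:**
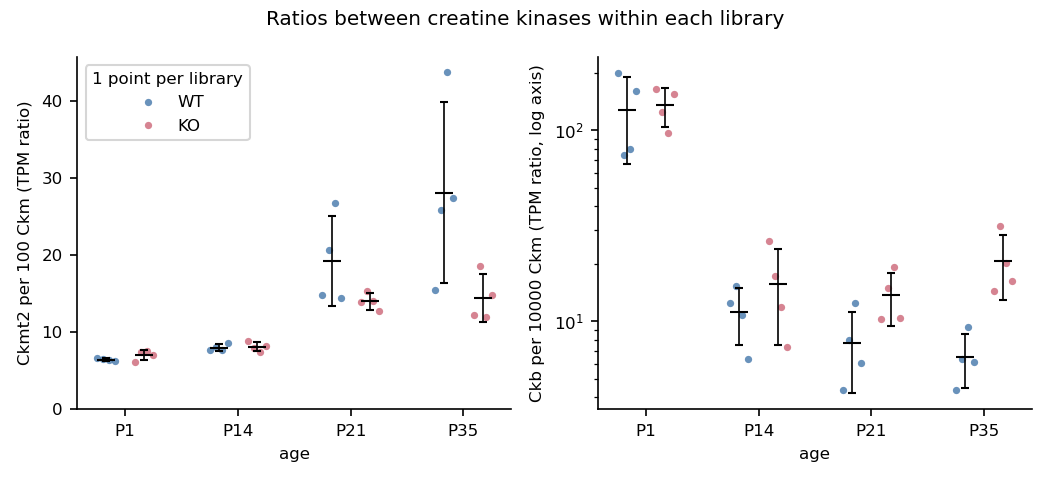
Left, *Ckmt2* per 100 *Ckm* and right, *Ckb* per 10000 *Ckm* transcripts (TPM ratios within a library, right axis logarithmic) by age, with 1 point per library, WT in blue and KO in red; black marks show mean ± SD of 4 libraries. At P35 the KO libraries lay at 12 to 18.6 on the left and 14.4 to 31.4 on the right.

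The genes whose pattern over the 32 libraries was most like each of the 7 were sought by Pearson r of log2 CPM + 1, among 13516 genes of at least 1 CPM on average. These r describe libraries that share age, genotype and depth, and carry no test. The mean of each age was taken over WT and KO together, so the difference between genotypes stays in r within ages too. Genes picked this way tend to share the KO direction of their partner. Their KO values below are therefore description and add no separate result. For *Ckm* they were *Gpi1* (0.990), *Pgm1* (0.989) and *Pygm* (0.988), enzymes of glycogen and glucose breakdown, and after the mean of each age was taken away *Aldoa* (0.966), *Gapdh* (0.965) and *Eno3* (0.964), enzymes of glycolysis. At P35 *Pygm* fell by 0.98 on the log2 scale in KO (log2 fold change -0.98, adjusted *P* = 0.00113), *Eno3* by 0.77 (-0.77, 0.00253) and *Gapdh* by 0.63 (-0.63, 0.00698). *Pgm1* (-0.76, 0.0134), *Aldoa* (-0.68, 0.0105) and *Gpi1* (-0.32, 0.0571) were not called.

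For *Ckmt2* the nearest were *Adck1* (0.990), *Rmnd1* (0.989) and *Mrpl37* (0.988), genes of mitochondrial proteins, and within ages *Uqcrc1* (0.981), *Sdhb* (0.971) and *Uqcrc2* (0.970), subunits of respiratory complexes III and II. *Uqcrc1* was at 1011 to 1358 CPM in WT and 548 to 676 CPM in KO at P35, and its log2 fold change of -0.99 (adjusted *P* = 2.72e-04) was smaller in size than the -1.59 of *Ckmt2*. *Sdhb* (-0.73, adjusted *P* = 8.86e-04) and *Uqcrc2* (-0.74, 6.59e-04) fell too. At P21 these 3 had values of -0.51, -0.37 and -0.43, under the fold threshold.

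For *Ckb* they were *Tmem119* (0.961), *Lcp1* (0.958), the actin-bundling protein of leukocytes, and *Cotl1* (0.951), an actin-binding protein, and within ages *Rac2* (0.883), *Tmem119* (0.847) and *Lcp1* (0.837). At P35 *Tmem119* rose in KO by 1.26 (adjusted *P* = 3.78e-04), *Cotl1* by 1.11 (4.11e-04) and *Rac2* by 1.06 (0.00442), whereas *Lcp1* (0.69, 0.0133) was not called. For *Ckmt1* they were genes of epithelia, *Cldn4* (0.998), *Tgm3* (0.997) and *Serpinb7* (0.996), and within ages *Cldn4* (0.980), *Serpinb3a* (0.978) and *Tgm3* (0.971).

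For *Gatm* they were *Zcwpw1* (0.972), *Fgfrl1* (0.971) and *Ndn* (0.971), and within ages *Ndn* (0.896), *Stk39* (0.858) and *Igfbp4* (0.858), of which *Ndn* (0.93, adjusted *P* = 0.00336) and *Igfbp4* (0.72, 0.00668), a binding protein of insulin-like growth factors, rose in KO at P35. For *Gamt* they were *Gm17396* (0.941), *Trp53cor1* (0.918) and *Ddc* (0.912), and within ages *Obsl1* (0.894), *Gm17396* (0.864) and *Copb2* (0.822). For *Slc6a8* they were *Slc11a2* (0.967), an iron transporter, *Clec16a* (0.966) and *Aen* (0.963), and within ages *Mast4* (0.750), *Asb2* (0.723) and *Aen* (0.711), the lowest values for any of the 7. Among the 7 themselves *Ckm* and *Ckmt2* had r = 0.74 within ages and *Ckm* and *Ckb* r = -0.69.

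The other genes of phosphoryl transfer (adenylate kinases, nucleoside diphosphate kinases, the ADP/ATP and phosphate carriers, the outer membrane channels and M-band proteins) were 19 in number and all were tested. At P21 0 of 19 were called (4.67% of all genes), and at P35 2 were higher and 6 lower in KO (16% of all genes called), with a median log2 fold change of -0.13 against 0.04 over all genes. On library totals 5 were higher and 0 lower at P35, so the direction of this list depended on the scaling. That scaling moved the median gene up by 0.40 in KO at P35, and the 16% holds for TMM only. *Ak3*, the adenylate kinase of the mitochondrial matrix, fell from 120 to 142 CPM in WT to 61.1 to 72.5 CPM in KO at P35 (log2 fold change -0.94, adjusted *P* = 1.04e-04). *Vdac1* (-0.75, 6.03e-04) and *Vdac3* (-0.61, 8.05e-04), channels of the outer mitochondrial membrane through which creatine and its phosphate pass, were lower as well, and on library totals these 3 kept their sign but not their call.

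Of 20 genes of arginine, glycine and methyl supply, 17 were tested. At P21 2 were higher and 2 lower in KO (4.67% of all genes called), and at P35 3 were higher and 4 lower (16%), with medians of -0.13 and -0.14 against 0.01 and 0.04 over all genes. *Shmt1*, which makes glycine from serine in the cytosol, was at 8.99 to 11.1 CPM in WT and 3.6 to 4.29 CPM in KO at P35 (log2 fold change -1.37, adjusted *P* = 7.17e-05), and was already lower at P21 (-1.74, 0.00156). *Ass1* and *Asl*, the enzymes that make arginine from citrulline, were both higher in KO. *Ass1* was at 1.64 to 2.35 CPM in WT and 4.69 to 5.64 CPM in KO at P35 (1.35, adjusted *P* = 2.16e-04), and *Asl* at 4.13 to 4.72 against 7.57 to 8.95 CPM at P21 (0.93, 3.67e-04). *Adk*, the adenosine kinase that clears a product of methyl transfer, was lower at P21 (-0.85, adjusted *P* = 2.24e-04) and P35 (-1.23, 2.78e-04). The groups of these 4 genes did not overlap at either age, and at P35 their directions were the same on library totals. There the list split into 4 higher and 3 lower, with the median gene moved up by 0.40 in KO, and the 16% does not apply.

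Of 15 known regulators of kinase genes, all tested, 3 were higher and 1 lower in KO at each of P21 and P35, where 4.67% and 16% of all genes were called. The median log2 fold changes of the list were 0.04 and -0.22, against 0.01 and 0.04 over all genes. *Myog*, the myogenic factor of differentiating myoblasts, was at 9.22 to 20.6 CPM in WT and 33.6 to 43.3 CPM in KO at P21 (log2 fold change 1.35, adjusted *P* = 0.00349) and at 10.5 to 20.1 against 42.6 to 101 CPM at P35 (2.35, 3.23e-04). *Mef2c*, the gene of a MEF2 factor, was at 644 to 697 against 964 to 1114 CPM at P21 (0.62, adjusted *P* = 8.72e-04). Whether its product binds the match in the *Ckb* window, which contains the letters TATAAA, was not tested. *Myf6* rose at P35 (0.75, adjusted *P* = 0.00158). *Ppargc1a*, a coactivator of mitochondrial genes, was lower in KO at P21 (-0.73, adjusted *P* = 8.15e-04) and at P35, with 52.0 to 66.6 CPM in WT and 22.6 to 27.4 CPM in KO (-1.15, 8.51e-05). On library totals the split was 4 higher and 0 lower at P21 and 5 higher and 1 lower at P35. That scaling moved the median gene up in KO by 0.19 at P21 and 0.40 at P35, and the shares of 4.67% and 16% hold for TMM only. Without KO P21 replicate 2 only 1 of the 4 calls at P21 was left, that of a gene lower in KO.

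Fibre type markers differed between genotypes as well, chiefly at P35. At P35 the 6 slow fibre markers summed to 36.2 to 171 CPM in WT and 768 to 1830 CPM in KO, where 5 of 6 were called higher, and the 10 fast fibre markers to 118342 to 168885 against 84253 to 109104 CPM, where 2 of 10 were called lower. In TPM the fast markers summed to 88353 to 134647 in WT and 108729 to 131958 in KO, so the lower sum in KO depended on the scale. The 6 markers of immature fibres summed to 2188 to 2765 CPM in WT and 279 to 787 CPM in KO, although 5 of the 6 were called higher. The 1 called lower was *Actc1*, at 2147 to 2735 CPM in WT and 51.7 to 500 CPM in KO. None of these fibre markers was at 0 in every library of a group. Of the other cell types at P35, 3 of 4 adipocyte markers were called higher in KO, summing to 1.98 to 8.35 CPM in WT and 12.7 to 48.3 CPM in KO, 1 of the 2 keratinocyte markers tested was higher, 2 of 5 satellite cell and 2 of 5 endothelial markers were lower, and 0 of 6 fibroblast, 0 of 5 smooth muscle, 0 of 5 Schwann cell and 0 of 5 erythroid markers were called. The Schwann cell markers had a median log2 fold change of 1.51 and summed to 55.3 to 445 CPM in WT and 229 to 961 CPM in KO, with wide overlap. At P21, where *Ckmt2* was called, 2 of 6 immature fibre markers were higher and 1 lower, 2 of 5 satellite cell markers were lower (sums of 29.2 to 39.6 against 16.8 to 28.1 CPM), 1 of 10 fast fibre markers was lower, 1 of the 2 keratinocyte markers tested was higher, and 0 of the slow fibre, fibroblast, smooth muscle, endothelial, Schwann cell, adipocyte and erythroid markers were called. Their part in the levels of *Ckm*, *Ckb* and *Ckmt2* was not tested.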

How the data were processed

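Per the labels and the methods, poly(A) RNA of TA muscle was sequenced as directional paired-end libraries, and the authors aligned reads to GRCm38 with STAR. Each value is an expected count per gene and library, as the authors deposited it, unscaled and not pooled. The submitters' processing notes name STAR 2.6.1, RSEM 1.2.22 and DESeq2, while HTSeq is given as the counting tool in the methods. The annotation release and the strand setting of counting are not given in the sources used here. Libraries held 49321035 to 85631408 counts, a count under 3 could not be told from 0, and this covers counting error only.

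Symbols, positions and exon lengths came from GENCODE M21 (GRCm38); 54723 of 54838 genes had a symbol. Counts were rounded (6.7% of the values of the 7 genes were not whole). The quasi-likelihood test of edgeR 4.0.16 in R 4.3.3 (filterByExpr, TMM, glmQLFit, glmQLFTest) was run two-sided. All genes tested entered the Benjamini-Hochberg adjustment, and calls needed an adjusted p below 0.01 and a fold over 1.5. KO against WT and neighbouring ages were fitted on 8 libraries each. Interactions were fitted on all 32 libraries and called at an adjusted p under 0.01 alone. SE is the log2 fold change divided by the square root of its F statistic. CPM used TMM sizes over 32 libraries, which moved no median log2 fold change by more than 0.03 from those of the single fits. The scripts were tested on simulated data.

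The 7 genes and all lists were chosen with earlier results of these data known. From each other list the text names up to 3 called genes with the smallest adjusted p at P21 and at P35, and for each of the 7 genes the 3 with the highest r on each measure. Alternatives were DESeq2 1.42.0, RLE, 2 other filters, counts not rounded, a replicate block, mitochondrial genes removed, library totals, adjusted deviances, other sets of libraries in a fit, each library left out, and for the kinase shares the longest transcript as length. Same-numbered WT and KO libraries deviated together at P14 (r from 0.51 to 0.85) and not at P1, P21 or P35; no label says that a number is shared between mice. The table held 0 columns that were not used.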

Additional observations from a re-analysis of the deposited data

Results flagged for a closer look

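In 50 groups of 4 libraries (a gene in a group, leaving out groups near 0 counts), 5 had 1 library far from the other 3; chance would place about 1 in 20 there. At P1, WT replicate 3 held 8.20 CPM of *Ckmt1* against 3.02 to 3.78 CPM in the others, and it also had the highest sum of keratinocyte markers, 5818 CPM. WT P1 replicate 2 held 183 CPM of *Ckmt2* against 139 to 144 CPM and 238 CPM of *Gatm* against 202 to 203 CPM. WT P21 replicate 2 held 13.6 CPM of *Gatm* against 17.8 to 18.1 CPM. WT P35 replicate 3 held 13.1 CPM of *Gamt* against 24.0 to 25.1 CPM, together with the highest *Ckmt2*, 3390 CPM, and the lowest *Ckm*, 15157 CPM, of its group.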

How the results depend on the processing

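Counts of the 7 genes called were recomputed under the alternatives named above and with each library left out. The count for KO against WT at P21 was 0 instead of 1 with library totals and 0 with all 32 libraries in 1 fit, where *Ckmt2* missed the fold and the p threshold respectively. With the replicate block the count from P14 to P21 was 2 instead of 4 in WT and 1 instead of 4 in KO. There replicates share only a number, since their deviations were not correlated in every pair (r from -0.30 to -0.07 in WT and from -0.17 to 0.16 in KO). The block changed no other count by more than 1.5 times. At P14, where the numbers paired, KO against WT remained at 0 called, while 98 of all genes were called with the block. DESeq2 called 1 gene instead of 0 from P21 to P35 in KO. With 1 library left out, the count was, for KO against WT, 0 to 0 (P1 and P14), 1 to 1 (P21) and 2 to 3 (P35), 6 to 6, 2 to 4 and 0 to 0 over the WT age steps, 5 to 6, 1 to 4 and 0 to 0 over the KO steps, and 0 to 0 for the 3 interactions. With library totals *Slc6a8* turned sign at P21 (0.12), at P35 (0.20) and from P1 to P14 (-0.07 in WT, -0.12 in KO), and *Gatm* at P21 (0.14), since that scaling moves all genes together. Near 0, leaving out 1 library turned *Gatm* (-0.21 to 0.05) and *Slc6a8* (-0.16 to 0.03) at P21. *Ckm* at P35 was called with DESeq2 (-0.69, adjusted p = 1.51e-04) and with all 32 libraries (edgeR, -0.70, adjusted p = 0.00954). Single log2 fold changes were rechecked for all genes tested in KO against WT at P21 and P35. In the other comparisons only those with an unadjusted p under 0.05 in edgeR were rechecked. Of the values so rechecked, 369 kept their sign and side of the threshold under alternatives other than leaving out a library. Another 10 lost their call and 4 gained one. With a library left out 324 kept both and 34 lost their call. Calls gained elsewhere, as by *Gamt* from P1 to P14 on library totals, are not in these counts. The cause was not tested. Depth limits only *Ckmt1* after P1.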
